A study of Mus musculus with 3 samples.

Results

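Ser5-phosphorylated RNA polymerase II (Pol_II) was examined at 6 genes of the interleukin-1 (IL-1) family in mouse macrophages. They are the ligands Il1a, Il1b and Il18, the receptor antagonist Il1rn, the receptor chain Il1rap and the decoy receptor Il1r2. The genes were chosen by name, and each of the 6 symbols matched 1 of the 22350 protein-coding gene records of GENCODE M1 on chromosomes 1 to 19 and X of mm9. Tags were counted over each gene record, within 1 kb of its transcription start site (TSS) and in the sequence between Il1a and Il1b, and peaks were taken from the lists that the authors deposited. Levels are given as tags and as TPM, the tags scaled to a library of 1000000 tags, and densities as TPM per kb.

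The study mapped Pol_II phosphorylated at serine 5 of its carboxy-terminal repeat by ChIP-Seq, which sequences DNA pulled down by an antibody from cross-linked chromatin. The cells were bone marrow-derived macrophages (BMDM) from female Fvb mice (Fvb/Hsd in the study's methods) at day 7 of differentiation. Of 3 libraries, 1 was Ser5 from untreated cells, 1 was Ser5 from cells given lipopolysaccharide (LPS) at 10 ng/ml for 2 h, and 1 was input DNA of untreated cells, made without antibody. LPS is a glycolipid of the bacterial surface that activates macrophages through Toll-like receptor signalling, and the labels name it alone for the stimulated library. The study's text also calls the Ser5 cells LPS-treated, but its total Pol_II data came from cells given LPS with gamma interferon. Whether interferon was present for Ser5 too could not be settled. There was 1 library per condition and no input from stimulated cells, so no difference has a replicate check, no test was made and no p-value is given. Every interval is an exact 95% interval that covers counting error only.

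IL-1α and IL-1β, encoded by Il1a and Il1b, signal through the IL-1 receptor and induce fever and the expression of other inflammatory genes, and macrophages are a main source of IL-1β. Il1rn encodes a secreted protein that occupies the same receptor without signalling, Il1rap encodes the accessory chain that the receptor needs to signal, and Il1r2 encodes a receptor that binds IL-1 but cannot signal. IL-1β and IL-18 are made as precursors that caspase-1 cuts once an inflammasome has assembled, and Ser5 phosphorylation marks Pol_II that has begun transcription.

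The sequence just upstream of 6 starts is shown first because the results differ in where the tags lie relative to the starts. The window of Il1r2 and a further window of Il1rn are not shown. All 8 RefSeq promoter windows of the 6 genes, from 250 bases before to 50 after a start, matched the mm9 genome at exactly 1 place. The 180 bases before the start are given for 6 of them, read 5′ to 3′ on the strand of the gene, with matches to any of 5 motif spellings in capitals.
Il1a, chr2:129135709-129135888, minus strand: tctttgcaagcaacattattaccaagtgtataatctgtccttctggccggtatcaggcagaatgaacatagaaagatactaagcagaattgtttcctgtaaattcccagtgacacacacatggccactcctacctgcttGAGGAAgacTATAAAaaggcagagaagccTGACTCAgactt
Il1b, chr2:129196876-129197055, minus strand: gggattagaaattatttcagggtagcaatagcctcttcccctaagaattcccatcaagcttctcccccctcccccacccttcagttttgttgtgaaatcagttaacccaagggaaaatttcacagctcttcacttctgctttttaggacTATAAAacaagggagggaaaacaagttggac
Il1rn, upstream start, chr2:24192200-24192379, plus strand: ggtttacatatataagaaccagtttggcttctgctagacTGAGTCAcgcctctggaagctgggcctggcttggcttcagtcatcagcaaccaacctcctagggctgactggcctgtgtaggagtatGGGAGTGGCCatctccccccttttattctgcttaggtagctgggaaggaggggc
Il1rn, downstream start, chr2:24200631-24200810, plus strand: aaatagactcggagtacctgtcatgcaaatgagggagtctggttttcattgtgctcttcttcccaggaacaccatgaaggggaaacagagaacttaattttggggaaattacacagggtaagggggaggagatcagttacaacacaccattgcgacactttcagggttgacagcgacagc
Il18, chr9:50362625-50362804, plus strand: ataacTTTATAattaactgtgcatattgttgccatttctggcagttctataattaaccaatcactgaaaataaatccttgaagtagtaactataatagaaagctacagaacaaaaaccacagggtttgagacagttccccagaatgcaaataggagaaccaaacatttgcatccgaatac
Il1rap, chr16:26581611-26581790, plus strand: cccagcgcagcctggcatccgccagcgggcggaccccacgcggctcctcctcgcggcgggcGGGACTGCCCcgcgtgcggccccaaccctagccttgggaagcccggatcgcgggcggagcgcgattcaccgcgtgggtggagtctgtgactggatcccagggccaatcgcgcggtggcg

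The motifs were searched on both strands of the 300-base windows, and a match is a description of letters, not a binding site. TATAAA was found in the windows of Il1a and Il1b, beginning 32 and 31 bases before the start, and 13.6% of the 32851 promoter windows in the RefSeq table hold it on either strand. Il1a also held GAGGAA, the PU.1 spelling, which 28.3% of windows hold, and TGANTCA, the AP-1 spelling, which 7.81% hold. TGANTCA was present as well before the upstream start of Il1rn, beginning at base -141. The kappa B spelling GGGANNNNCC, present in 20.7% of windows, was found before the upstream start of Il1rn at base -54 and before Il1rap at base -119, and not in these letters in the window of Il1b. TTGCNNAA, the C/EBP spelling, which 10.8% of windows hold, was in none of the 8 windows. In the window of Il18 and in a further Il1rn window, TATAAA was found on the opposite strand only.

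Over their gene records, Il1b, Il1a, Il18 and Il1rn carried more Ser5 tags after LPS than in untreated cells, whereas both receptor genes, Il1rap and Il1r2, were nearly level. By a rule of size (at least 2 times, and 10 or more tags in the 2 Ser5 libraries together), 4 of 6 members were higher after LPS and 0 of 6 were lower. Among the 17386 coding genes with at least 10 tags, 5.83% were higher and 11.3% lower by the same rule. The median ratio of LPS to untreated was 4.28 over the 6 members and 0.874 over those coding genes. With cells in bulk, more tags from each cell and more cells carrying them cannot be told apart.

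**Figure D1:**
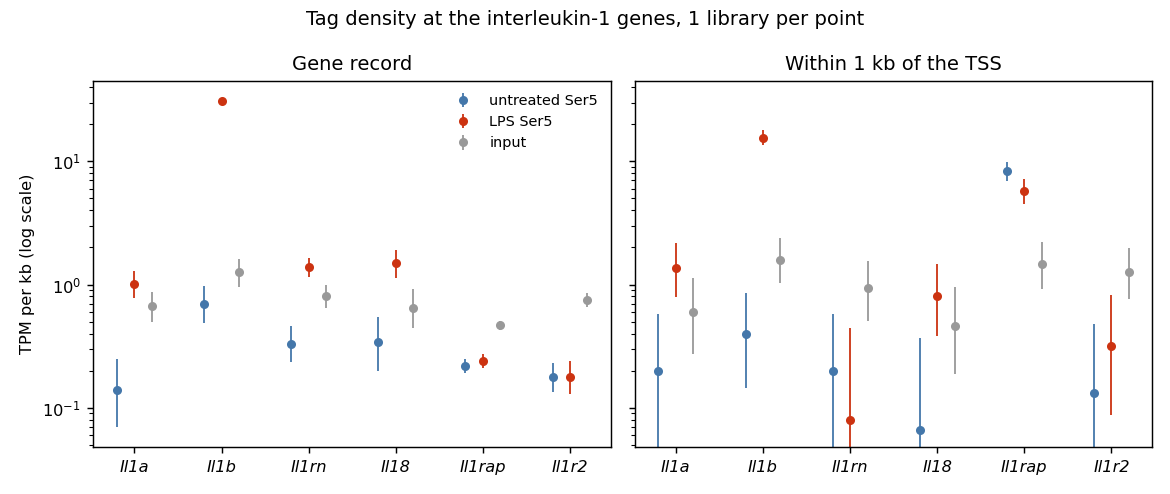
Tag density of the 6 genes in TPM per kb (log scale) over the gene record (left) and within 1 kb of the TSS (right). Each point is 1 library and each bar its exact 95% Poisson interval, and bars that reach the lower edge continue below it. The LPS point of Il1b stands at 31.1 TPM per kb over the gene record, far above the other members, while the Ser5 points of Il1rap are higher at the TSS than over its record in both libraries.

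Il1b, on the minus strand at chr2:129190306-129196875, was the member with the most Ser5 after LPS. Its record held 35 tags in untreated Ser5, 1277 in LPS Ser5 and 62 in input, which are 0.699, 31.1 and 1.25 TPM per kb. LPS Ser5 was far above both others. Untreated Ser5 was 0.558 (0.358 to 0.858) times input when scaled to all tags and 1.07 (0.685 to 1.64) times when scaled to tags outside the peaks, so whether it lay below input depends on the scaling. LPS Ser5 was 44.5 times untreated Ser5 (31.8 to 64.1), the 12th highest of the 17386 coding genes with enough tags. By density, Il1b ranked 9562 of 22350 coding genes in untreated cells and 145 after LPS. It ranked 419 in input, so its input density was also high among coding genes.

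Tags over Il1b spread along the gene and past its end. In the first kb downstream of the TSS there were 3 untreated and 178 LPS tags, and from 2 to 3 kb downstream 3 and 233. The kb that runs past the end of the record, from 6 to 7 kb, held 9 and 227 tags, the next 4 and 75, and the kb after that 0 and 5. LPS tags were therefore dense up to about 8 kb from the TSS and sparse beyond. Upstream, the kb next to the TSS held 3 untreated and 17 LPS tags. Density within 1 kb of the TSS was 0.494 (0.422 to 0.576) times that from 1 kb to the gene end in LPS cells, and 0.522 (0.178 to 1.27) times in untreated cells.

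The LPS list held a single peak of 7400 bp over Il1b, chr2:129189250-129196649, which covered exons and introns and ran past the 3′ end. It ranked 54 by length and 52 by score among 49438 LPS peaks, whose median length was 439 bp. A second LPS peak of 248 bp lay over the first exon and the TSS, with 4 untreated, 30 LPS and 5 input tags. No untreated peak overlapped Il1b. The record of Gm14047, a processed transcript on the other strand, overlaps the 5′ end of Il1b. Outside it, Il1b held 27 untreated, 1029 LPS and 37 input tags, a ratio of 46.4 (31.7 to 70.8). The part of Gm14047 outside Il1b held 21 untreated and 44 LPS tags.

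Il1a, on the minus strand at chr2:129125346-129135708, lies downstream of Il1b and points the same way. It held 11 untreated, 65 LPS and 52 input tags, or 0.139, 1.00 and 0.666 TPM per kb. The LPS to untreated ratio of Il1a was 7.20 (3.77 to 15.1), the 82nd highest of the coding genes with enough tags, but LPS Ser5 was 1.51 (1.03 to 2.21) times input, or 3.10 (2.12 to 4.56) times when scaled to tags outside the peaks, and neither peak list had a peak over the gene or within 1 kb of its TSS. The window around the TSS held 3 untreated, 17 LPS and 9 input tags. The 5 kb upstream held 6 untreated, 33 LPS and 28 input tags, so the higher LPS count was not limited to the gene record.

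The lincRNA record Gm14023 overlaps most of Il1a on the other strand, and ChIP tags carry no strand of transcription. In the 2146 bp of Il1a outside it there were 3 untreated, 11 LPS and 8 input tags, and tags of the overlapping stretch cannot be assigned to either gene. Beyond the 3′ end of Il1a, the 5 kb flank held 208 untreated, 157 LPS and 55 input tags, a ratio of 0.920 (0.743 to 1.14). Both lists had a peak there, at the TSS of Ckap2l, the next coding gene, which starts 2398 bp from the Il1a record. The start of Gm14023, which faces it, lies inside both peaks, so tags there cannot be assigned to either start.

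Il18, on the plus strand of chromosome 9, gave different counts with different annotated starts. The GENCODE M1 record, chr9:50383378-50389942, held 17 untreated, 61 LPS and 32 input tags, a ratio of LPS to untreated of 4.37 (2.52 to 7.99). Within 1 kb of its 5′ end there were 1 untreated, 10 LPS and 7 input tags. The RefSeq start lies 20573 bp further upstream, and within 1 kb of that start there were 31 untreated, 152 LPS and 16 input tags, with a ratio of 5.98 (4.04 to 9.10). From the RefSeq start to the end of the gene the counts were 69, 343 and 123, and the ratio was 6.06 (4.67 to 7.96).

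At the RefSeq start of Il18 both lists had a peak, the LPS one being chr9:50362791-50363725 with 24 untreated, 118 LPS and 10 input tags. This start faces that of Bco2, a coding gene on the other strand whose record begins 481 bp away and overlaps it, so tags at the pair of starts cannot be assigned. Tex12, on the other strand, lies between the RefSeq start and the record, and a second LPS peak with 4 untreated and 45 LPS tags covered its TSS. The third LPS peak, chr9:50373327-50373767, lay outside any GENCODE gene record, 10742 bp downstream of the RefSeq start and so within the RefSeq span of Il18, and 9611 bp before the record, with 1 untreated, 15 LPS and 1 input tags. In the sequence from the RefSeq start to the record that lies outside Bco2 and Tex12, there were 22 untreated, 127 LPS and 66 input tags, a ratio of 7.04 (4.45 to 11.6). Inside the record, 1 LPS peak lay in an intron, with 10 untreated, 12 LPS and 5 input tags.

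Il1rn, the antagonist, on the plus strand at chr2:24192373-24207014, held 37 untreated, 127 LPS and 89 input tags, or 0.332, 1.39 and 0.807 TPM per kb. LPS Ser5 was 4.18 times untreated Ser5 (2.88 to 6.21). Il1rn and the GENCODE record of Il18 could not be separated by these ratios, whose intervals overlapped, and each was among the 3 genes most like the other by the measure used further on. That measure was not computed from the RefSeq start of Il18.

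The tags of Il1rn were unevenly placed. The record has a second annotated start 8435 bp downstream of the first, near the start of 2 RefSeq windows. Before the second start there were 15 untreated, 14 LPS and 38 input tags, a ratio of 1.14 (0.509 to 2.53). From the second start to the end there were 22, 113 and 51, a ratio of 6.26 (3.94 to 10.4), and the 2 intervals did not overlap. This division was chosen after the values were seen. Within 1 kb of the first start there were 3 untreated, 1 LPS and 14 input tags, and within 1 kb of the second 9, 21 and 10.

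Of 3 LPS peaks over Il1rn, all lay downstream of the second start and none was in the untreated list. The one with the highest score (111.79), chr2:24202088-24202671 in an intron, held 2 untreated, 29 LPS and 7 input tags. The second, chr2:24203405-24203807, also in an intron, held 1, 11 and 4. The third, of 200 bp in the last exon, held 4, 8 and 2. In the 5 kb beyond the gene there were 16 untreated, 15 LPS and 24 input tags, so LPS tags ended near the end of the record.

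**Figure D2:**
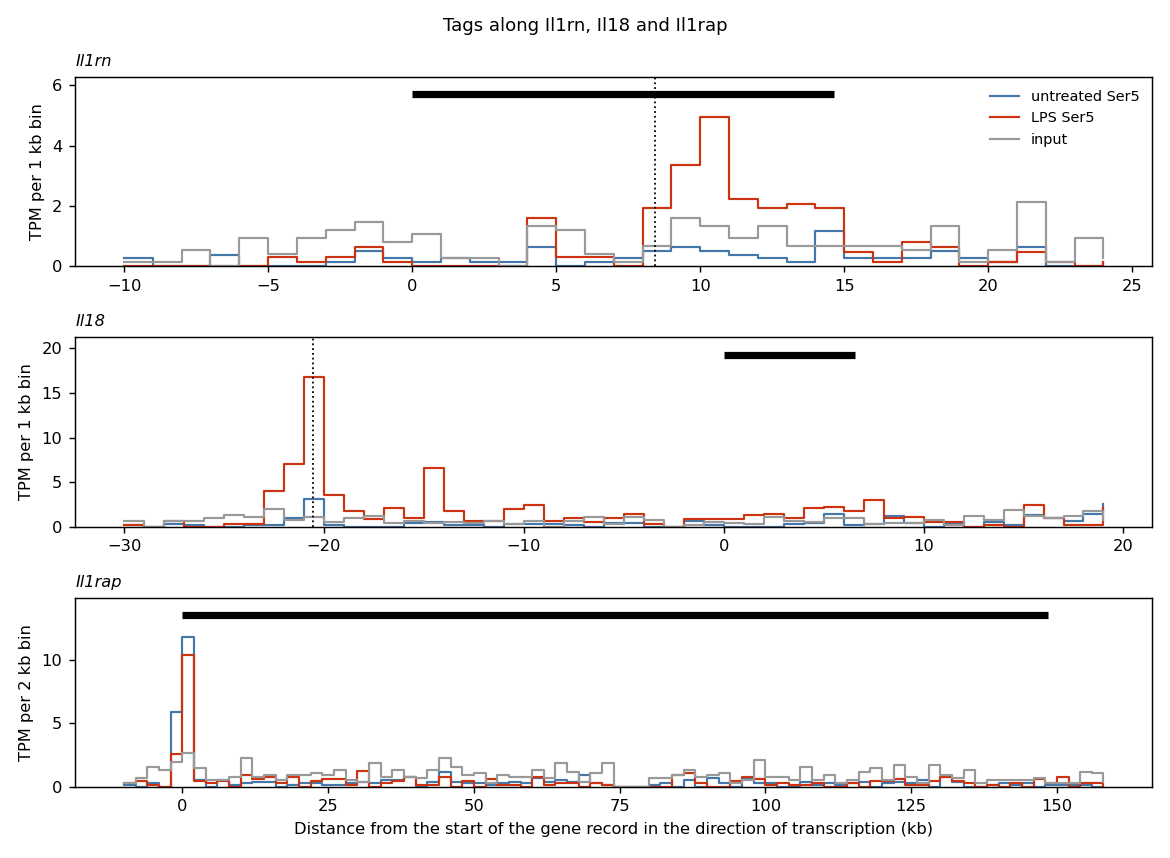
Tags in TPM in 1 kb bins along Il1rn and Il18 and in 2 kb bins along Il1rap, by distance from the start of the gene record, with each library as a line, the record as a black bar and other starts of Il1rn and Il18 dotted. LPS tags of Il1rn lie downstream of its second start, those of Il18 are highest at the RefSeq start 20573 bp upstream of the record, and both Ser5 lines of Il1rap are highest at its start.

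The receptor genes stood apart from the ligands. Il1rap, on the plus strand at chr16:26581790-26730203, is the longest member, at 148414 bp. Its record held 248 untreated, 222 LPS and 522 input tags, or 0.219, 0.239 and 0.467 TPM per kb, and LPS Ser5 was 1.09 times untreated Ser5 (0.906 to 1.31). Both Ser5 densities over the whole record were below input when scaled to all tags, but when scaled to tags outside the peaks they were 0.899 (0.770 to 1.05) and 1.06 (0.898 to 1.24) times input.

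At its start, however, Il1rap carried the most untreated Ser5 of the 6 genes. Within 1 kb of the TSS there were 127 untreated, 72 LPS and 22 input tags, or 8.33, 5.76 and 1.46 TPM per kb. Untreated Ser5 was 5.71 (3.61 to 9.43) times input, and LPS Ser5 3.94 (2.42 to 6.68) times. The ratio of LPS to untreated at the TSS was 0.691 (0.510 to 0.930), beside a median of 0.831 over the 12535 coding genes with at least 10 tags there. It was 0.775 (0.553 to 1.08) with duplicates collapsed and 0.744 (0.549 to 1.00) when scaled to tags outside the peaks, so whether its interval lies below 1 depends on the processing. The 5 kb upstream, which overlaps the TSS window, held 47 untreated, 16 LPS and 27 input tags, a ratio of 0.415 (0.220 to 0.745). Of these, 45 untreated, 16 LPS and 15 input tags lay in the 2 kb next to the TSS. The upstream ratio is therefore not separate from that at the TSS.

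Il1rap had 1 peak in each list, chr16:26581420-26582137 in the untreated list and chr16:26581617-26582120 in the LPS list, both over the first exon. Density within 1 kb of its TSS was 57.0 (44.9 to 72.4) times that of the rest of the gene in untreated cells and 32.1 (24.0 to 42.6) times after LPS, and these intervals did not overlap. The rest of the gene was below input when scaled to all tags, at 0.317 (0.264 to 0.378) times in untreated and 0.388 (0.324 to 0.464) times in LPS Ser5. These density ratios were not computed with duplicates collapsed. Beside 3 other annotated starts, 42452, 140730 and 145338 bp downstream, no more than 3 tags lay within 1 kb in either Ser5 library. In LPS cells the ratio of density near the TSS to that of the rest of the gene was 1.42 (0.774 to 2.48) at Il1a and 0.497 (0.226 to 0.982) at the Il18 record.

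Il1r2, the decoy receptor, on the plus strand at chr1:40141613-40182064, showed little Ser5 in either condition. It held 55 untreated, 45 LPS and 227 input tags, or 0.179, 0.178 and 0.745 TPM per kb, and LPS Ser5 was 0.997 times untreated Ser5 (0.657 to 1.51). Both Ser5 libraries were near 0.24 times input, at 0.240 (0.175 to 0.323) and 0.239 (0.170 to 0.330). The TSS window held 2 untreated, 4 LPS and 19 input tags, and neither list had a peak over the gene or within 5 kb of it. Within 1 kb of the RefSeq start, 1325 bp downstream of the record start and beside the start of the lincRNA Gm16894 on the other strand, there were 14 untreated, 2 LPS and 20 input tags.

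Read across the members, the order of density over the gene record in LPS cells was Il1b, Il18, Il1rn, Il1a, Il1rap and Il1r2. The intervals of Il18, Il1rn and Il1a overlapped from each to the next, at 1.49 (1.14 to 1.91), 1.39 (1.16 to 1.65) and 1.00 (0.775 to 1.28) TPM per kb, and those of Il1rap and Il1r2 did too. The value of Il18 is for its GENCODE record. From the RefSeq start, a span that Bco2 and Tex12 also overlap, it was 2.02 (1.81 to 2.25), which does not overlap the interval of Il1rn. Il1b was above all others. In untreated cells Il1b was again highest, at 0.699 TPM per kb (0.487 to 0.973), and the other 5 genes lay between 0.139 and 0.340. Il1b was also highest in input, at 1.25 TPM per kb, where the other 5 lay between 0.467 and 0.807. The untreated intervals of Il1b and of Il18, next in order, overlapped.

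Within 1 kb of the TSS, 4 of 6 members had at least 10 tags over both Ser5 libraries. Of these, 3 were higher after LPS (Il1a, Il1b and Il18) and 0 were lower, beside 5.58% and 14.1% of coding genes. The ratio at Il1b was 39.6 (17.9 to 109), from 6 untreated and 195 LPS tags. At Il1a it was 6.91 (2.00 to 36.8) and at the Il18 record 12.2 (1.73 to 529), both from few tags. Within 500 bp of the start the ratio at Il1b was 18.5 (7.60 to 58.7) and at Il1a 4.87 (0.973 to 47.1). At the Il18 record it was 6.09 (0.682 to 288) within 500 bp, from 6 tags, and 4.06 (1.05 to 23) with tags moved 75 bp downstream.

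Against input over the gene record, 0 of 6 members reached 2 times input in untreated Ser5, beside 37.6% of coding genes. In LPS Ser5 2 of 6 did, Il1b at 24.8 (19.2 to 32.6) and Il18 at 2.30 (1.47 to 3.64), beside 32.9%. These values are scaled to all tags of a library, and 49.9% of untreated and 46.3% of LPS Ser5 tags lay outside the peaks of both lists, compared with 95.5% of input tags. Scaled to tags outside the peaks, 4 of 6 members reached 2 times input in LPS Ser5, namely Il1a at 3.10, Il1b at 51.1, Il1rn at 3.54 and Il18 at 4.73. That scaling raises the ratio to input of every gene. The share of coding genes was not counted with it, so the 4 of 6 has nothing to be set beside.

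In the untreated list 1 of 6 members had a peak over the gene record and 1 of 6 within 1 kb of the TSS, in both cases Il1rap. The shares of coding genes were 53.3% and 48.0%. In the LPS list 4 of 6 members had a peak over the record (Il1b, Il1rn, Il18 and Il1rap) and 2 of 6 near the TSS (Il1b and Il1rap), beside 50.6% and 45.9% of coding genes. With a score of at least 100, 3 members had an LPS peak over the record, but the share of coding genes was not counted at that score. The Il18 peak, with a score of 80.52, held 10 untreated and 12 LPS tags. Without a score limit, the share of members with a peak over the record after LPS was thus close to that of coding genes in general. These counts use the GENCODE start of Il18. At its RefSeq start, which faces that of Bco2, both lists had a peak.

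**Figure D3:**
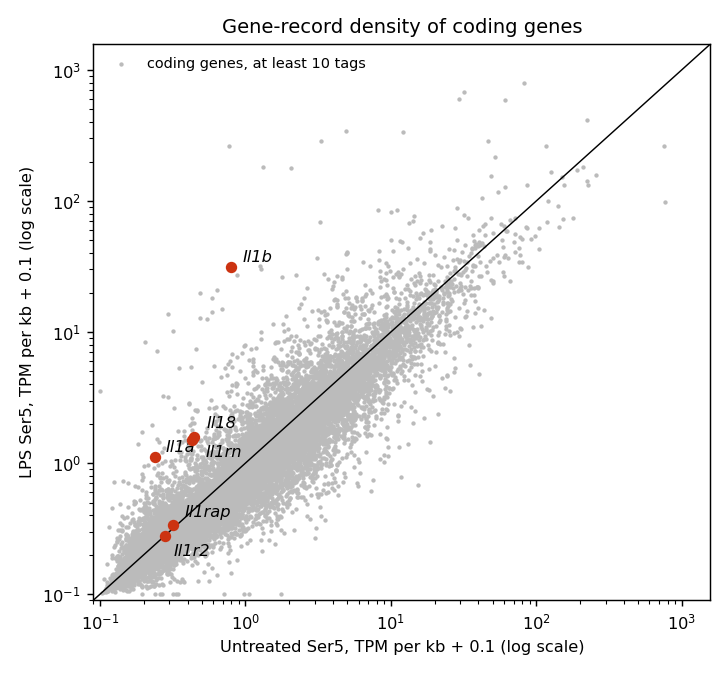
Density of Ser5 tags over gene records in untreated (horizontal) and LPS (vertical) cells, in TPM per kb plus 0.1 on log scales, for coding genes with at least 10 tags, with the 6 members in red and equal density as a line. Il1b, Il1a, Il18 and Il1rn lie above the line, with ratios from 4.18 to 44.5, and Il1rap and Il1r2 lie on it.

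Between the records of Il1a and Il1b lie 54597 bp, of which 54345 bp are outside annotated genes, the exceptions being a U12 snRNA and the pseudogene Gm14039. This extragenic sequence held 81 untreated, 305 LPS and 269 input tags, a ratio of LPS to untreated of 4.59 (3.58 to 5.94). Most of the LPS tags were close to Il1b. The 5 kb next to its 3′ end held 19 untreated and 183 LPS tags, a ratio of 11.7 (7.30 to 19.9), whereas the sequence at least 5 kb from both genes held 56 and 89, a ratio of 1.94 (1.37 to 2.76).

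The untreated list had 0 extragenic peaks between the genes and the LPS list had 2. The first, chr2:129163829-129164406, lay near the middle, 25900 bp beyond the end of Il1b and 28121 bp before the start of Il1a. It held 5 untreated, 25 LPS and 8 input tags, a ratio of LPS to untreated of 6.09 (2.29 to 20.4) and of LPS to input of 3.77 (1.65 to 9.66). Because this peak was called for LPS tags above input, both ratios lean high by that choice and are a description only. The second, chr2:129188823-129189202, lay 1104 bp from the end of Il1b and next to its long peak, with 3 untreated, 20 LPS and 2 input tags. Their scores were 61.66 and 93.70, compared with 3100 for the long Il1b peak. Tag counts of every peak found in the LPS list only lean towards LPS in the same way.

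The middle 300 bases of each extragenic peak are given so that the sequence under these tags can be read, with matches to the same 5 spellings in capitals.
Extragenic peak near the middle, chr2:129163968-129164267, plus strand: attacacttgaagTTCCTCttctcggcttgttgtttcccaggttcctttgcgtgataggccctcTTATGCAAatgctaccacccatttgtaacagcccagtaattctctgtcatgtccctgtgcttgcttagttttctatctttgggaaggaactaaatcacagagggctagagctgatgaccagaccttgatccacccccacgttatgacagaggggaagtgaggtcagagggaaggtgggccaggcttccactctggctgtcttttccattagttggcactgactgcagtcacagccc
Extragenic peak beside Il1b, chr2:129188863-129189162, plus strand: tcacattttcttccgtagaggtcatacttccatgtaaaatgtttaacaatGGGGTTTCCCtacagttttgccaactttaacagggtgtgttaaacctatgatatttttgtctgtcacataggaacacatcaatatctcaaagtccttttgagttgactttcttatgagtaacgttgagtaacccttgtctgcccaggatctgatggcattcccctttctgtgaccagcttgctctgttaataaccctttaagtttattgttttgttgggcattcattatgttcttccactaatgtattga
In the peak near the middle, GAGGAA and TTGCNNAA each matched once on the opposite strand. In the peak beside Il1b, GGGANNNNCC matched once on the opposite strand.

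**Figure D4:**
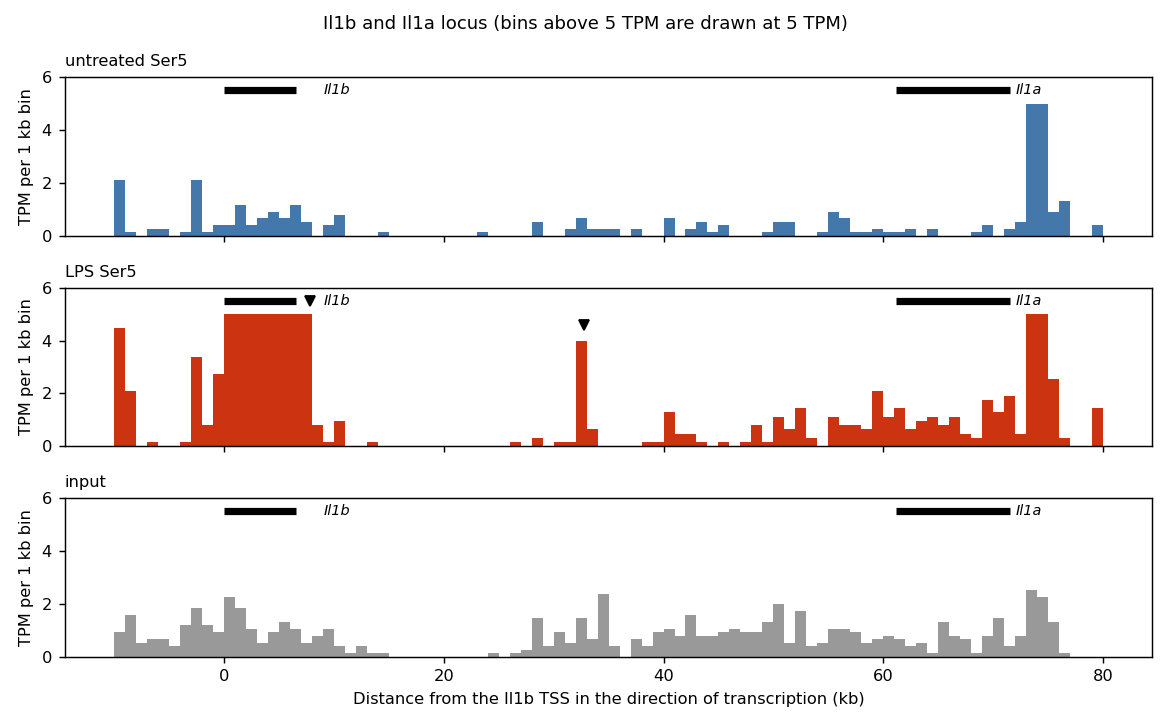
Tags in TPM in 1 kb bins around Il1b and Il1a in each library, by distance from the Il1b TSS, with gene records as black bars, the 2 extragenic LPS peaks as triangles and bins above 5 TPM drawn at 5 TPM. In the LPS library, Il1b is filled to just past its 3′ end, the highest bin from there to Il1a is the one that starts 32 kb from the TSS, with 25 tags, and the bins over and before Il1a are low but fuller than in the untreated library. Beyond Il1a, the LPS bins at the Ckap2l start reach 14.2 TPM.

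From 15 to 28 kb from the Il1b TSS all libraries were nearly empty, with 1 untreated, 1 LPS and 4 input tags. Of the 30-base sequences there, 74.7% occur more than once in the genome, and the authors kept only tags with a single match, so little can be said of that stretch. From 28 to 61 kb, where 4.28% are repeated, there were 61 untreated, 121 LPS and 231 input tags.

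Neighbouring coding genes did not all follow the members. Psd4, beyond Il1rn, held 687 untreated and 587 LPS tags, a ratio of 1.04 (0.931 to 1.16). Sdhd, beyond Il18, held 139 and 121, a ratio of 1.06 (0.825 to 1.36). Ckap2l, beyond Il1a, held 279 and 279, a ratio of 1.22 (1.03 to 1.44). Tex12, within the RefSeq span of Il18, had a ratio of 11.3 (5.19 to 29.3) from 7 and 65 tags. F830045P16Rik, upstream of Il1b, held 385 and 234, and Map4k4, before Il1r2, 1090 and 870. Il1f10, before Il1rn, and Tmem207 and Gm606, on either side of Il1rap, held between 2 and 16 tags in each Ser5 library.

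The coding genes whose 2 Ser5 densities were nearest to those of a member, by distance between log2 values of TPM per kb plus 0.1 in the 2 libraries among 17289 genes, were compared as a description. For Il1b they were Oasl1, Ifit1 and Cd69, at distances of 0.24, 0.64 and 0.66. For Il1a they were Mycl1, Gpr126 and Ccl22, at 0.10, 0.20 and 0.21. Il1rn was nearest to 2010002M12Rik, Il18 and Fzd1, and Il18 to Il1rn, 2010002M12Rik and Zhx2, all within 0.17. Il1rap lay within 0.02 of Gcnt3, Lect1 and Foxj1, and Il1r2 within 0.02 of Fam167a, Mrc2 and Arap2, where many genes with little Ser5 lie close together.

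Of 31 further genes of the IL-1 pathway, 27 had at least 10 tags over the record, and by the same rule 6 were higher after LPS, 1 was lower and 20 were neither, beside the 5.83% higher and 11.3% lower among coding genes. Their median ratio was 1.03. Among the other ligands, Il1f9, which encodes IL-36γ, held 8 untreated, 63 LPS and 31 input tags, a ratio of 9.60 (4.58 to 23.2), and had a peak near its TSS in the LPS list but not in the untreated list, whereas Il33 held 37 and 40. The other 4 ligands had too few tags.

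All 9 of the other receptors and binding proteins were neither higher nor lower. Il1r1, the signalling IL-1 receptor, held 129 untreated, 78 LPS and 473 input tags, a ratio of 0.737 (0.549 to 0.984). Il18r1 and Il18rap, the chains of the IL-18 receptor, held 32 and 49 untreated and 19 and 27 LPS tags. Sigirr, an inhibitory receptor of the family, held 65 and 27 tags, a ratio of 0.506 (0.311 to 0.804), which lies close to the limit for lower. Il18bp, which encodes a soluble inhibitor of IL-18, was the one with a dense record, at 133 untreated, 129 LPS and 39 input tags, a ratio of 1.18 (0.921 to 1.52).

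Of 5 genes linked to inflammasomes, 3 were higher after LPS, 1 was lower and 1, Gsdmd, with 171 and 205 tags and a ratio of 1.46 (1.19 to 1.80), was neither. Nlrp3, the inflammasome sensor, held 763 untreated, 2789 LPS and 226 input tags, a ratio of 4.45 (4.11 to 4.83). Casp1, which encodes caspase-1, held 70, 195 and 32, a ratio of 3.40 (2.57 to 4.53), and Casp4 118, 361 and 100, a ratio of 3.73 (3.02 to 4.63). Pycard, the inflammasome adaptor, was the 1 gene that was lower, with 283 untreated, 91 LPS and 14 input tags and a ratio of 0.392 (0.306 to 0.498). Of 11 signalling genes, the kinase gene Irak2 held 1183 and 5109 tags, a ratio of 5.26 (4.94 to 5.61), and Irak3, an inhibitor of the pathway, 1388 and 2772, a ratio of 2.43 (2.28 to 2.60), and the other 9 were neither.

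The libraries held 7616771 untreated Ser5, 6249819 LPS Ser5 and 7533308 input tags on chromosomes 1 to 19 and X, with tags of 45, 30 and 36 bases. All 7 macrophage markers had a peak at the TSS in both lists, and their summed level was 2045 TPM in untreated and 2011 TPM in LPS Ser5, compared with 183 TPM in input. By the rule of size 4 of the 7 were lower after LPS (Csf1r at a ratio of 0.449, Cd68 at 0.263, Itgam at 0.229 and Lyz2 at 0.405), Emr1 was higher at 3.01 and 2 were neither, with a median ratio of 0.449. Among coding genes 11.3% were lower and 5.83% higher by this rule. The 6 neutrophil markers summed to 5.91, 8.80 and 11.2 TPM, the 4 T cell markers to 60.3, 58.4 and 26.9, and the 4 B cell markers to 33.1, 31.5 and 87.5. The 4 fibroblast markers summed to 30.6, 32.3 and 60.3 and the 4 dendritic cell markers to 40.6, 57.6 and 95.8. None of these markers was at 0 tags in a Ser5 library. At least 10 tags were held by 3 neutrophil, 3 T cell, 4 B cell, 4 fibroblast and 4 dendritic cell markers. Among these markers of other cells, 3 were higher after LPS by the rule of size, Camp of neutrophils with 11 untreated and 29 LPS tags, Ms4a1 of B cells with 13 and 34 and Xcr1 of dendritic cells with 72 and 133. Siglech, of dendritic cells, was lower, with 11 and 4. The part of these markers in any result was not tested.

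The direction of every ratio of LPS to untreated rests on the sample labels. Ccl5, a chemokine gene that LPS induces in macrophages and which was looked at as a check of the labels after the data were seen, held 24 tags in the library labelled untreated, 7803 in the one labelled LPS and 14 in input, a ratio of 396 (266 to 619).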

How the data were processed

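Ser5 ChIP-Seq and input DNA of BMDM were analysed from deposited files. Per the labels and the study's methods, the authors aligned reads to mm9 with Bowtie, kept tags with a single match and ran MACS on each Ser5 library with input as control, at a p threshold of 1e-05. Tool versions are not given in the sources used here. The tag files deposited by the authors give the position and strand of each tag, duplicates included, and their peak lists give a score per peak, -10 times log10 of p, as deposited by the authors. The files hold Ser5 tags of 45 (untreated) and 30 (LPS) bases, whereas the methods state these lengths the other way round. Whether positions count from 0 or 1 could not be settled, so coordinates may be off by 1 base.

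Tags were counted at their 5′ ends and scaled to 1000000 tags (TPM) on chromosomes 1 to 19 and X. Genes are GENCODE M1 records on the same assembly, with the TSS at the 5′ end of the record, and promoters are from RefSeq (a GRCm38.p6 table), placed on mm9 by exact match. Ratios have exact 95% intervals conditional on the sum and counts exact Poisson intervals, and since duplicate reads are not independent molecules these cover counting error only. A count of 0 tags was taken as 0.5 when genes were called higher or lower.

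The members and lists were chosen with earlier results of these data known. Genes named are the members, their coding neighbours, pathway genes past the rule of size and 6 fixed ones, the 3 coding genes nearest to each member in Ser5 density, and markers. Bco2, Il33, Ccl5, Sigirr, Gsdmd and overlapping records were named after values were seen. Alternatives were collapsed duplicates, tags moved 75 bp downstream, scaling to tags outside peaks, other windows and starts, a peak score of at least 100 and other overlaps. Tags on 30-base sequences present once in the genome, records without overlapping genes, RefSeq starts and the division of Il1rn were added after the data were seen. Python 3.11.15, numpy 2.4.6, scipy 1.17.1, pandas 2.3.3, numba 0.67.0 and matplotlib 3.10.9 were used, and the functions were tested on simulated data.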

Additional observations from a re-analysis of the deposited data

How the results depend on the processing

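With 1 library per condition, differences between libraries made separately and differences between conditions cannot be told apart, and counts under about 10 tags give wide intervals, as at the starts of Il1a, Il1rn, Il18 and Il1r2. No paired analysis was possible because each condition has 1 library. Of 138 values under alternatives, 118 stayed within the 95% interval of the value reported or, for counts, within 1.5 times, 20 moved and 0 called values reversed. Where tags were few the interval is wide, so staying within it says little. The TSS ratio of Il1rn, for instance, went from 0.406 (0.00774 to 5.06) to 2.84 at its second start and counted as within. Only values called higher or lower could count as reversed. The count of 4 members higher and 0 lower after LPS was the same with duplicates collapsed to 1 tag, with tags moved 75 bp, scaling to tags outside the peaks and no minimum of tags.

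Scaling to tags outside the peaks raised the ratio of untreated Ser5 to input to 1.07 at Il1b, 0.787 at Il1rn, 1.01 at Il18, 0.899 at Il1rap and 0.458 at Il1r2. It raised that of LPS Ser5 to 3.10 at Il1a, 51.1 at Il1b, 3.54 at Il1rn, 4.73 at Il18, 1.06 at Il1rap and 0.492 at Il1r2, since a smaller share of Ser5 than of input tags lies outside the peaks. With it 4 members reached 2 times input in LPS Ser5, but the share of coding genes was not counted at this scaling. The same scaling multiplied each ratio of LPS to untreated by 1.08. At the TSS the ratio was 0 at Il1rn within 500 bp, from 2 tags, 0 and 1.22 at the Il1rap starts 42452 and 145338 bp downstream, from 3 and 4 tags, and 0.174 at the RefSeq start of Il1r2, from 16 tags. Il1rn gave 1.14 before and 6.26 after its second start. Counting peaks by their midpoint, 0 members had an untreated peak over the record, since the midpoint of the Il1rap peak lies just upstream of it. Of the extragenic peaks, 0 had a score of at least 100, and 1 was at least 5 kb from either gene. Counting only sequence outside marked repeats was not run, as the genome file marks none, and tags on single-copy 30-base sequences were used instead.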
